A study of Mus musculus with 50 samples.

Results

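The genes of 6 integrin subunits (Itga3, Itga5, Itga6, Itgav, Itgb1 and Itgb4), of the laminin-332 chains Lama3 and Lamb3, and of fibronectin (Fn1) were followed through 50 mouse mammary gland (MG) tumors. They were picked by gene symbol and make up 9 of the 37701 genes in the table. All 9 were found, each on a single row, and all had a mean RPKM (reads divided by gene length in kilobases and by library size) of at least 0.5, the minimum for testing. RNA came from tumors of female p53R270H/+WAPCre mice, 10 tumors in each of 5 treatment groups. Injections were given under the skin every other day from an age of 8 weeks, and tumors of 1 cm3 were taken 24 h after the last injection. Every mouse, controls included, carried a mutant p53 allele, and the WAP promoter drives its Cre in mammary epithelium. The groups received vehicle, insulin, glargine, X10 or IGF1. Glargine is a long-acting insulin analog, X10 an analog that binds the IGF1 receptor more strongly than insulin does, and IGF1 the natural ligand of that receptor. The samples titled untreated were taken as the vehicle group, as no other sample carries vehicle in its title. The study picked tumors resembling an epithelial to mesenchymal transition (EMT), with a latency near the median of their group.

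Integrins are pairs of an α and a β subunit that hold cells to the matrix around them. Itga6 pairs with Itgb4 to form the receptor of hemidesmosomes, which ties the keratin cytoskeleton of epithelial cells to laminin-332 in the basement membrane. Lama3 and Lamb3 encode the α3 and the β3 chain of laminin-332, and Itga3 with Itgb1 is its other main receptor. Itga5 with Itgb1 binds fibronectin, Itgav pairs with several β subunits and binds fibronectin and vitronectin, and Itgb1 is the common β subunit of many α chains. In the mammary gland, basal cells sit on a laminin-rich basement membrane, and a move from laminin receptors to fibronectin receptors is a textbook trait of EMT.

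The promoters of Lamb3 and Itga3 are printed as those of variable epithelial genes whose levels were correlated, a relation that rests on 2 tumors (below), and that of Itga5 as one of a steady fibronectin receptor subunit. Sequences are from RefSeq on GRCm38.p6, which has a promoter for 5 of the 9 members. Each runs 5′ to 3′ on the strand of the gene and lies before the start of transcription that RefSeq gives, with annotated exons left out. For Lamb3 that start is inside the longer span that GENCODE gives the gene (below), whose first transcripts begin upstream. Capitals mark a GC box (GGGCGG, or CCGCCC on the other strand) or an E-box of the kind bound by ZEB and SNAIL factors (CAGGTG, or CACCTG on the other strand).
Lamb3, chr1:193301744-193301992, plus strand: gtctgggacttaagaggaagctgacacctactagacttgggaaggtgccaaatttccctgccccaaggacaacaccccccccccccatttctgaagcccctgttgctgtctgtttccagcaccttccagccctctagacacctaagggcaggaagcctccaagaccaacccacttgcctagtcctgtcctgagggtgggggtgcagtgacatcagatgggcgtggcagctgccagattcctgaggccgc
Itga3, chr11:95076802-95076964, minus strand: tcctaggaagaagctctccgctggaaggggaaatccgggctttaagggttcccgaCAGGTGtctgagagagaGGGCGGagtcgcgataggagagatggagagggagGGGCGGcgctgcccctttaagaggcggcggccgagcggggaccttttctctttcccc
Itga5, chr15:103366792-103367041, minus strand: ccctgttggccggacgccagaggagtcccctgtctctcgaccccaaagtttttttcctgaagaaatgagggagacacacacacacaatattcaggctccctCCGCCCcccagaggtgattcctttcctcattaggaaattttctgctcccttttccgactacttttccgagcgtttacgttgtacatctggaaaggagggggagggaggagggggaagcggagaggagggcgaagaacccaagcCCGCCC
The Itga3 stretch held 1 E-box, which 11.8% of all promoters hold in a stretch of that length (163 bases), and 2 GC boxes, where 18.4% of promoters hold at least 1. The Lamb3 stretch held neither motif, and the Itga5 stretch held 2 GC boxes, a motif found at least once in 32.7% of all promoters over 250 bases. AP-1 sites (TGANTCA, its own reverse complement) were in none of the 3 stretches and in 6.75% of all promoters over 250 bases. These matches describe letters only.

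Library sizes, recovered from the steps between RPKM values, ran from 26.6 to 51.9 M reads (median 40.9 M reads). The sequence sample ids in the labels run on from group to group, and any effect that follows their order cannot be told apart from treatment. Vim, a mesenchymal marker, had at least 1094 RPKM in every tumor, while Epcam ran from 0.529 to 302 RPKM and Krt8 from 2.39 to 1616 RPKM. In tumor insulin_13, Bpifa2 took 11.3% of the summed RPKM. These are bulk tumors, in which fewer cells of a type and less RNA per cell cannot be told apart. Each tumor is from a mouse of its own and is named here by its label, such as X10_105 or, for the vehicle group, Untreated_174.

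By median RPKM over the 50 tumors, the order was Fn1 (598), Itgb1 (541), Itgav (193.9), Itga3 (89.9), Itga5 (64.8), Itga6 (37.9), Lamb3 (15.0), Itgb4 (6.88) and Lama3 (0.360). Neighbours in this order were not all apart. Fn1 was above Itgb1 in 28 of 50 tumors, and Itga3 above Itga5 in 34, whereas Itgb1 was above Itgav and Itgb4 above Lama3 in all 50. The lengths behind the RPKM of Fn1 and Lama3 were not recovered, so the places of these genes at the top and the bottom of the order, and their counts against Itgb1 and Itgb4, are uncertain. The order of Itgav and Itga5 depends on the gene length behind the RPKM. The length recovered for Itgav was 1105 bp, and its longest annotated transcript is 6.38 times that. Per kilobase of the longest transcript, for the 7 members with a recovered length, the order was Itgb1 (257), Itga5 (64.1), Itga3 (50.5), Itgav (30.4), Itga6 (18.8), Lamb3 (6.89) and Itgb4 (6.31). Comparisons of 1 gene between tumors are not touched by the length.

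The members differed in how much they varied. Lamb3, Lama3 and Itgb4 had an SD of 1.95, 1.48 and 1.44 on the log2(RPKM + 0.5) scale, above 99.2%, 97.7% and 97.5% of the 16733 tested genes. Itga3 followed with an SD of 1.08 (above 94.0% of genes). Itga5 (0.45) and Itgb1 (0.38) lay near the median SD of the tested genes, 0.42. Fn1 (0.74), Itga6 (0.61) and Itgav (0.57) lay between, so that Itga6, although an epithelial member, varied less than Fn1. Lamb3 was 322 times as high in the highest as in the lowest tumor and Itgb1 3.33 times.

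Lamb3, the β3 chain, had a lowest, median and highest RPKM of 1.34, 56.5 and 261 with vehicle, of 1.45, 16.7 and 90.4 with insulin, and of 1.52, 10.0 and 18.9 with glargine. With X10 these values were 1.91, 35.3 and 314, and with IGF1 0.975, 17.4 and 53.5. Each treated group overlapped with vehicle, and the 10 glargine tumors all lay below the vehicle mean on the log scale. Its log2 fold change was -1.54 with glargine (95% confidence interval -3.19 to 0.12, adjusted p = 0.804, limma), -0.92 with insulin (-2.58 to 0.73), 0.24 with X10 (-1.42 to 1.89) and -1.01 with IGF1 (-2.66 to 0.65). These intervals are wide, and none of the 4 values passed the test.

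Lama3, the α3 chain, was close to silent in most tumors and high in a few. Its lowest, median and highest RPKM were 0.173, 0.487 and 31.5 with vehicle, 0.193, 0.355 and 0.634 with insulin, and 0.115, 0.329 and 6.23 with glargine. They were 0.268, 0.380 and 37.0 with X10, and 0.0740, 0.320 and 1.04 with IGF1. Over all 50 tumors, 43 were at 1.04 RPKM or less and 7 at 5.98 RPKM or more, with none between. Of the 7, 3 were vehicle tumors, 3 X10 tumors and 1 a glargine tumor. Its log2 fold change was -1.19 with insulin (95% confidence interval -2.42 to 0.04, adjusted p = 0.464, limma) and -1.21 with IGF1 (-2.44 to 0.01, adjusted p = 0.568). With glargine it was -0.95 (-2.18 to 0.28) and with X10 0.18 (-1.05 to 1.41). All 10 insulin and all 10 IGF1 tumors were below the vehicle mean on the log scale, a mean that 3 of the 10 vehicle tumors set, and the ranges overlapped.

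**Figure D1:**
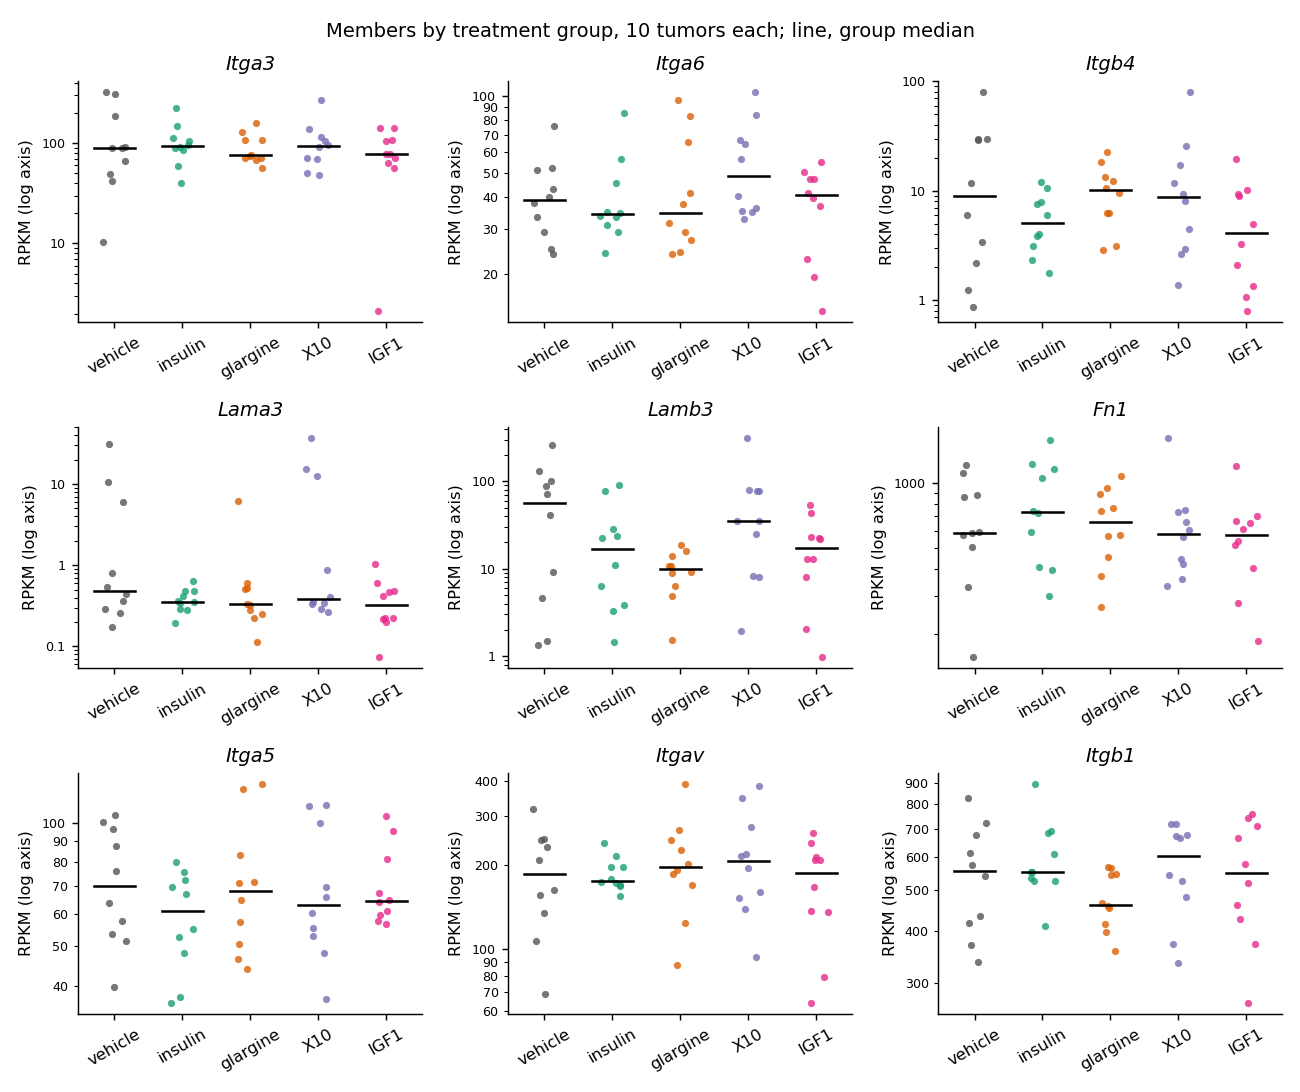
RPKM (log axis) of the 9 members in each tumor by treatment group, 10 tumors a group, with the group median as a line. Lama3 is split in the vehicle, glargine and X10 groups into tumors of at most 1.04 RPKM and tumors of at least 5.98 RPKM, while Itgb1 stays within 269 to 896 RPKM.

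Of the 7 tumors highest in Lama3, 4 were among the 7 highest in Lamb3, 5 among the 7 highest in Itgb4, and 3 each among the 7 highest in Itga3 and in Itga6. Tumor X10_105 had 37.0 RPKM of Lama3, 314 of Lamb3 and 79.9 of Itgb4, and Untreated_174 had 31.5, 261 and 79.8 RPKM. These were the 2 highest tumors of all 3 genes. X10_111, X10_100, Untreated_195 and Untreated_182 followed, with Lama3 from 5.98 to 15.1 RPKM and Lamb3 from 71.4 to 101.8 RPKM. Tumor glargine_69 was the exception, with 6.23 RPKM of Lama3 but 6.30 of Lamb3. Of the epithelial markers, 6 of these 7 tumors were among the 7 highest in Epcam, 5 in Cdh1, 5 in Krt14, 4 in Krt8, and 3 each in Krt5 and Trp63. They were not alike in keratins. In X10_105 the basal keratins Krt5 (1036 RPKM) and Krt14 (2587 RPKM) were the highest of all tumors, and in Untreated_174 the luminal keratin Krt8 was the highest (1616 RPKM), beside 2164 RPKM of Krt14. Vim was lowest in Untreated_174 (1094 RPKM), which also had the lowest Fn1 (156 RPKM). X10_100, in contrast, had the highest Fn1 of all tumors (1616 RPKM). Ranked from the highest down, the 7 tumors spanned places 1 to 50 in Fn1 and 13 to 50 in Vim.

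**Figure D2:**
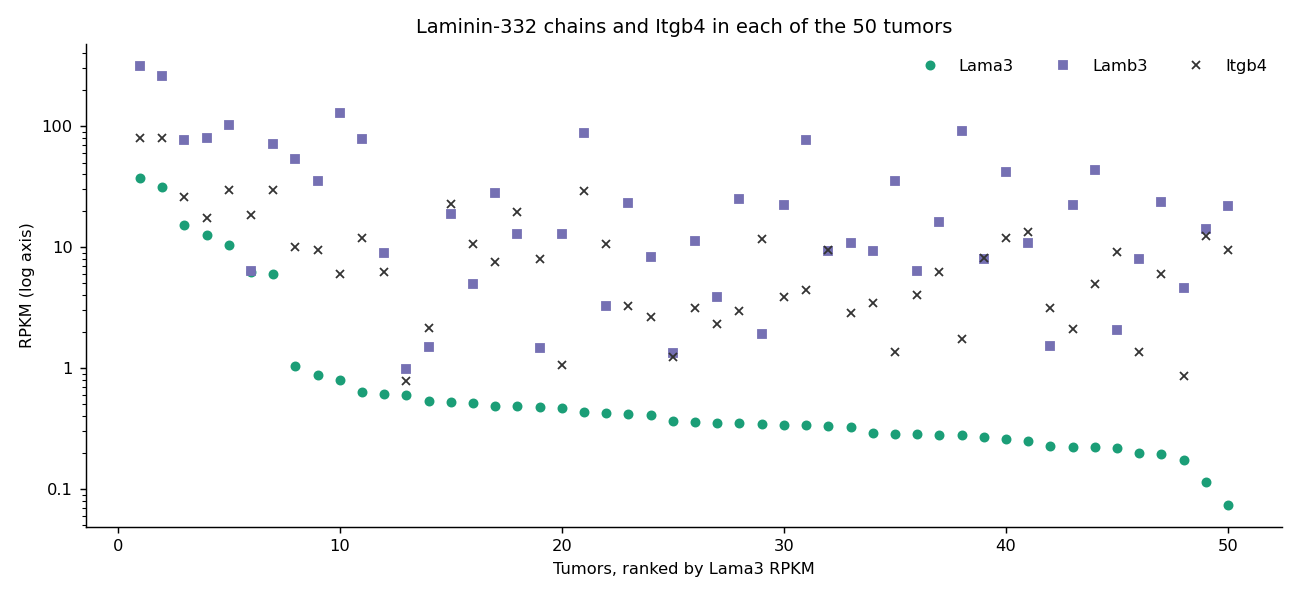
RPKM (log axis) of Lama3, Lamb3 and Itgb4 in each of the 50 tumors, ranked from the highest to the lowest Lama3. Lama3 falls from 5.98 RPKM at rank 7 to 1.04 RPKM at rank 8, and Lamb3 is above 50 RPKM also in tumors with little Lama3.

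High Lamb3 was not limited to the tumors with high Lama3. Among the 43 tumors with little Lama3, Lamb3 reached 129 RPKM, and the correlation between both chains was 0.15 (Pearson's r, adjusted p = 0.419 over the 36 member pairs; Spearman's rho 0.06, adjusted p = 0.781; permutation tests). Because Lama3 splits the tumors into 2 separate clusters, no correlation of it was tested over all 50.

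Of the hemidesmosome receptor, Itgb4 had a lowest, median and highest RPKM of 0.861, 8.91 and 79.8 with vehicle, of 1.75, 5.02 and 11.9 with insulin, and of 2.86, 10.1 and 22.7 with glargine. With X10 they were 1.36, 8.71 and 79.9, and with IGF1 0.789, 4.10 and 19.6. Its partner Itga6 was far steadier, with group medians from 34.3 RPKM (insulin) to 48.7 RPKM (X10) and single tumors from 14.3 to 103 RPKM. The log2 fold change of Itgb4 was -1.01 with IGF1 (95% confidence interval -2.25 to 0.23, adjusted p = 0.690, limma), and that of Itga6 was 0.40 with X10 (-0.13 to 0.93, adjusted p = 0.588). The groups overlapped in both. Itga3, the α subunit of the other laminin-332 receptor, had group medians from 75.6 to 94.2 RPKM, with 2.11 RPKM in IGF1_158 and 323 RPKM in Untreated_174. IGF1_158 was the lowest of all tumors in Itga3 and also in Itgb4 (0.789 RPKM), Lamb3 (0.975 RPKM) and Krt8 (2.39 RPKM).

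Fn1 had a lowest, median and highest RPKM of 156, 588 and 1207 with vehicle, 301, 735 and 1582 with insulin, 266, 659 and 1072 with glargine, 334, 581 and 1616 with X10, and 185.9, 575 and 1192 with IGF1. Its receptor subunit Itga5 had group medians from 60.9 RPKM (insulin) to 70 RPKM (vehicle), and Itgav from 176 RPKM (insulin) to 206 RPKM (X10). Itgb1 had group medians from 461 RPKM (glargine) to 602 RPKM (X10), and its 10 glargine tumors spanned 358 to 568 RPKM, inside the vehicle range of 337 to 826 RPKM. For these 4 genes the 95% confidence intervals of the log2 fold changes against vehicle stayed between -0.86 and 0.94 in all 4 treatments, and the widest were those of Fn1. For Itgb1 they stayed between -0.51 and 0.49, which is the tightest bound of the 9 members.

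Treatment was compared for all members in 1 limma fit across the 16733 tested genes. Against vehicle, 0 of the 9 members passed an adjusted p of 0.05 with insulin, where 0.0% of all tested genes did, 0 with glargine (0.0%), 0 with X10 (0.0657%) and 0 with IGF1 (0.00598%). When X10 and IGF1 tumors together were set against those of the other 3 groups, 0 of 9 passed (0.155% of all genes), and 0 of 9 in the F test over the 5 groups (0.102%). With insulin and glargine 0 genes were called by limma and 0 by limma voom, at 1865 and 1043 genes with an unadjusted p under 0.05. No member had an unadjusted p under 0.05 in any of these 6 comparisons. The smallest was that of Lama3 with IGF1 (0.0524). In none of the 45 contrasts of a member did the groups fail to overlap, a count that was not taken over all genes. The comparisons with vehicle share their 10 control tumors. In simulated data of the X10 comparison over 16733 genes, with independent normal values, 100 randomly drawn genes were changed by each size. The fit found 78% of genes with a log2 fold change of 1 and 96% of those with one of 2. These shares do not carry over to the members. Of these, 8 had a spread above the median of the tested genes, and that of Lamb3, Lama3 and Itgb4 was the widest (above).

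**Figure D3:**
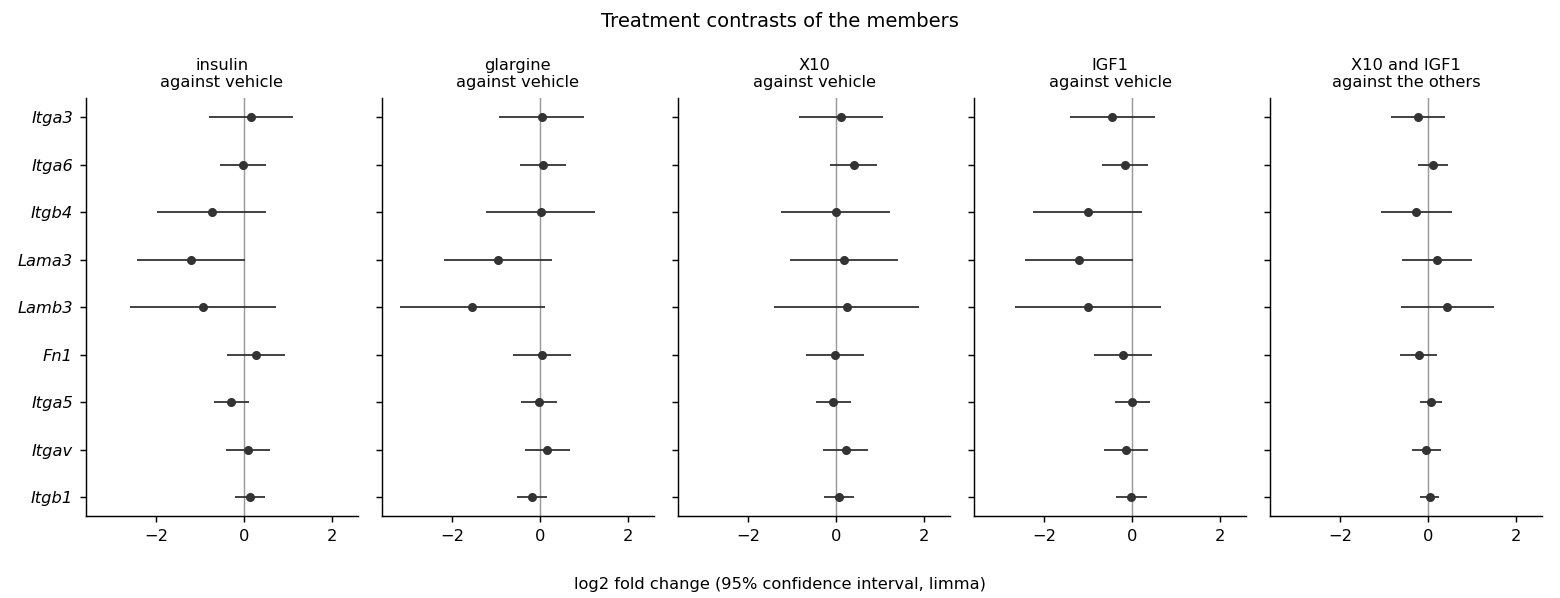
Log2 fold changes of the 9 members with 95% confidence intervals (limma) for each treatment against vehicle and for X10 and IGF1 against the other tumors. All 45 intervals include 0, and those of Lamb3, Lama3 and Itgb4 are the widest.

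For X10 and IGF1 against the other groups, which sets the 2 agents with the stronger binding to the IGF1 receptor apart, the 9 log2 fold changes lay between -0.27 (Itgb4) and 0.43 (Lamb3), with a median of 0.03 beside -0.02 over all tested genes. Fn1 was at -0.22 (95% confidence interval -0.65 to 0.20) and Itga5 at 0.06 (-0.19 to 0.32). Treatment accounted for 16.8% of the variance of Lama3, 11.8% of that of Lamb3, and 4.2% to 9.7% of that of the other 7, where the median tested gene had 9.3%.

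A list of 67 other adhesion genes, grouped by role, gave no calls either. Of the 66 that were tested, 0 passed in each of the 6 comparisons. At an unadjusted p under 0.05 there were 11 of 66 with insulin, 2 with glargine, 6 with X10, 13 with IGF1 and 7 with X10 and IGF1 together. Of all 16733 tested genes there were 1865 (11.1%), 1043 (6.23%), 1841 (11.0%), 1479 (8.84%) and 1764 (10.5%). The share of the list was thus higher with insulin and IGF1, lower with glargine and X10, and about level with X10 and IGF1 together. The median log2 fold change of the list in X10 and IGF1 against the others was -0.08, beside -0.02 over all genes, and 24 of the 66 were above 0. Among the other integrin subunits, Itgb7, a leukocyte integrin, was the most positive, with a median of 32.8 RPKM in the 20 X10 and IGF1 tumors and 17.0 RPKM in the other 30 (log2 fold change 0.71, standard error 0.24, adjusted p = 0.200, limma). Itga11, a collagen receptor of fibroblasts, was the most negative (-0.59, standard error 0.23, adjusted p = 0.318). Among the laminin chains Lama5 was the most negative (-0.36), and among the hemidesmosome genes and laminin receptors the extremes were Col17a1 (0.31), the transmembrane collagen of hemidesmosomes, and Dst (-0.28), which links them to keratin. In the focal adhesion list they were Parvb (0.15) and Tln2 (-0.39), and among the ligands and basement membrane genes Tgfbi (0.17) and Thbs1 (-0.42). None of these 9 had an adjusted p under 0.200.

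Treatment aside, the members could be compared over the tumors. In 36 pairs, 7 correlations of log2(RPKM + 0.5) passed an adjusted p of 0.05 (permutation tests, Benjamini-Hochberg over the pairs). Itga3 and Itgb4 had an r of 0.53 (adjusted p = 0.00216; rho 0.44, adjusted p = 0.0256), with 0.53 when values were centred within treatment groups and 0.47 without the 2 tumors farthest from the median. Itgb4 and Lamb3 had an r of 0.52 (adjusted p = 0.00252; rho 0.42, adjusted p = 0.0283), with 0.53 after centring and 0.38 (adjusted p = 0.0640) without 2 tumors. Itgav and Fn1 had an r of 0.47 (adjusted p = 0.00900; rho 0.36, adjusted p = 0.0670), with 0.46 after centring and 0.32 (adjusted p = 0.141) without 2 tumors.

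The hemidesmosome partners Itga6 and Itgb4 correlated with an r of 0.44 (adjusted p = 0.0105; rho 0.41, adjusted p = 0.0309), with 0.41 after centring and 0.42 (adjusted p = 0.0368) without 2 tumors. Itga3 and Lamb3 had an r of 0.42 (adjusted p = 0.0105; rho 0.30, adjusted p = 0.110), 0.44 after centring and 0.25 (adjusted p = 0.220) without 2 tumors, so this relation rests on those tumors. The only called pair with a negative sign was Itga6 with Itga5, the laminin against the fibronectin receptor, at -0.41 (adjusted p = 0.0167; rho -0.37, adjusted p = 0.0584), -0.45 after centring and -0.33 (adjusted p = 0.135) without 2 tumors. The laminin receptor subunits Itga3 and Itga6 had an r of 0.33 (adjusted p = 0.0746) that passed with rho (0.46, adjusted p = 0.0256) and without 2 tumors (0.46, adjusted p = 0.0194). In the 43 tumors with little Lama3, Itga6 and Lama3 had an r of 0.40 (adjusted p = 0.0400; rho 0.37, adjusted p = 0.0760), 0.43 after centring and 0.30 (adjusted p = 0.174) without 2 tumors.

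By type of adhesion, all 6 pairs among Itga6, Itgb4, Lama3 and Lamb3 were positive (r from 0.15 to 0.52, median 0.31), and 3 of them passed. Among Fn1, Itga5 and Itgav, 2 of 3 pairs were positive, and Fn1 and its receptor subunit Itga5 had an r of -0.06. Across these sets, 8 of 12 pairs were negative, with a median r of -0.18 and a highest of 0.31. Itga3, in neither set, was positive with 3 of the 4 epithelial members (-0.11 with Lama3 to 0.53), and 2 of these pairs passed. With the 3 mesenchymal members it was negative (-0.25 to -0.02), and none passed. Itgb1 gave positive values with all 3 mesenchymal members (0.15 to 0.35) and with 3 of the 4 epithelial ones (-0.26 to 0.20), and none of these passed.

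A score by transcript length moved with some of these values, and what lies behind the score was not tested. It was taken in each tumor from the mean z-score of genes whose longest transcript has at least 4793 bp. That of genes with at most 2171 bp was subtracted. Itgav followed it with an r of 0.77 (adjusted p = 0.000240, the smallest p that 100000 permutations allow being 1e-05; rho 0.69; 0.67 without 2 tumors). Itgb1 followed it with 0.47 (adjusted p = 0.00320; rho 0.40, adjusted p = 0.0294; 0.42 without 2 tumors). Fn1 also had an r of 0.47 (adjusted p = 0.00420), but it did not pass with rho (0.29, adjusted p = 0.153) and was at 0.31 without 2 tumors. Itgb4, Lamb3, Itga3 and Itga5 had values between -0.22 and 0.08, with 0.35 for Itga6 (adjusted p = 0.0576). After regression on the score, the r of Itgav and Fn1 was 0.18 (adjusted p = 0.377). Of the called epithelial pairs, Itga6 and Lama3 went from 0.40 to 0.25 (adjusted p = 0.255) in the 43 tumors, and the others still passed, with 0.55 for Itga3 and Itgb4, 0.53 for Itga6 and Itgb4, 0.51 for Itgb4 and Lamb3, and 0.43 for Itga3 and Lamb3. The value of Itga6 and Fn1 went from -0.22 to -0.47 (adjusted p = 0.00612), and that of Itga5 and Itgav from 0.07 to 0.38 (adjusted p = 0.0362). Library size was not called with any member (r from -0.17 to 0.06). In all, 24 such relations were computed for the 8 members other than Lama3, and 4 passed, the other being Itgav with the share of mitochondrially encoded RNA (0.49, adjusted p = 0.00276).

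**Figure D4:**
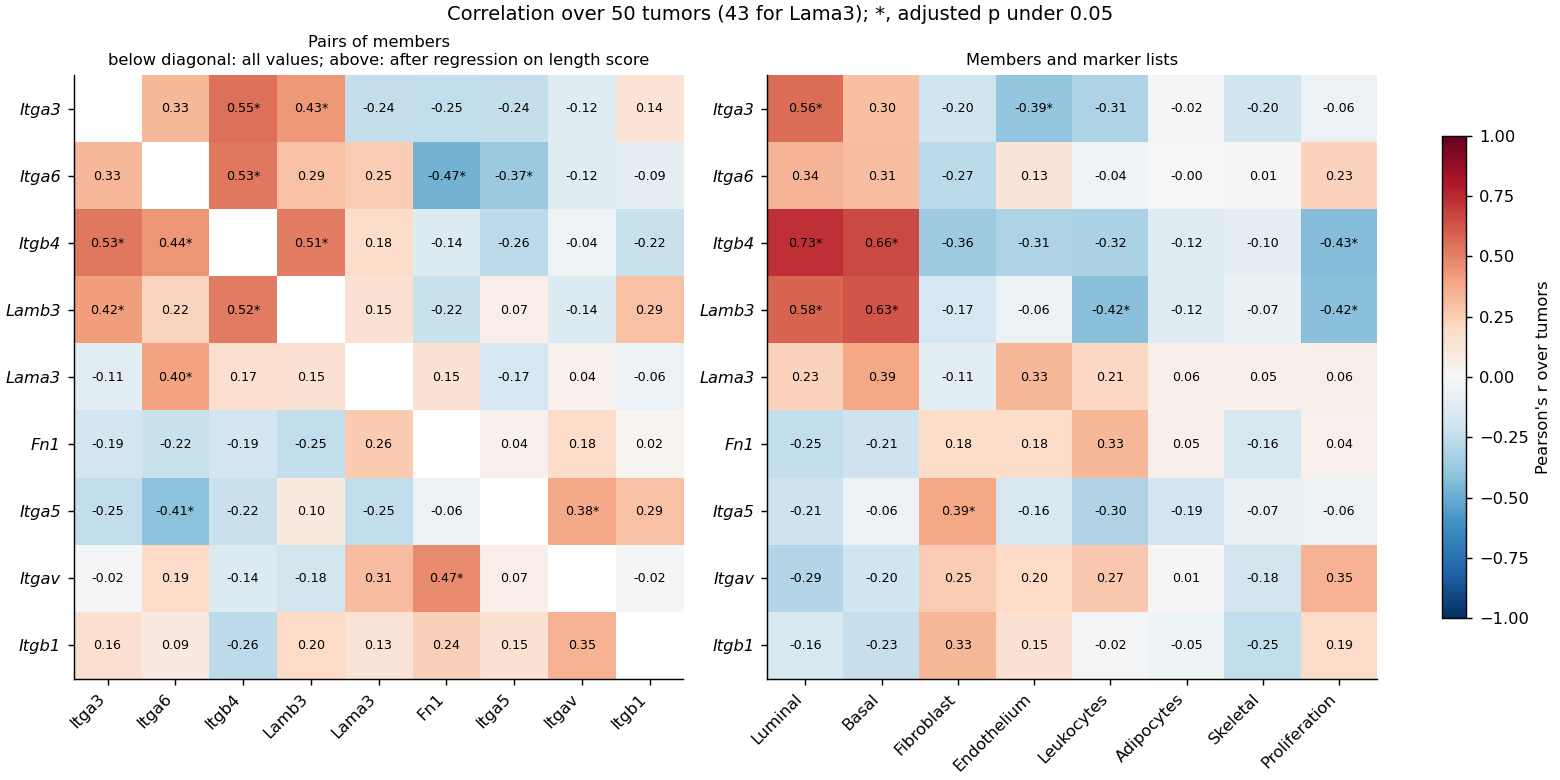
Pearson's r over 50 tumors (43 for Lama3) between members (left; below the diagonal as measured, above it after regression on the transcript length score) and between members and 8 marker lists (right). Values with an asterisk have an adjusted p under 0.05, and the block of Itga3, Itga6, Itgb4 and Lamb3 is positive on both sides of the diagonal.

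The members were then set beside the mean z-score of each of 8 marker lists, which gave 72 relations, of which 10 passed. Itgb4 followed the luminal list (Cdh1, Epcam, keratins, Cldn4 and Elf3) with an r of 0.73 (adjusted p = 0.000240, at the smallest p possible; rho 0.59; 0.67 without 2 tumors) and the basal list (Trp63, Krt5, Krt14, Krt17 and Oxtr) with 0.66 (rho 0.58; 0.54 without 2 tumors). Lamb3 followed the basal list with 0.63 (rho 0.53; 0.53 without 2 tumors) and the luminal list with 0.58 (rho 0.44; 0.49 without 2 tumors). Itga3 followed the luminal list with 0.56 (adjusted p = 0.00259; rho 0.35, adjusted p = 0.0987; 0.46 without 2 tumors). Centring within treatment groups left these at 0.71, 0.63, 0.63, 0.59 and 0.57. Itga6 did not pass with either list (0.34 and 0.31, adjusted p = 0.0766 and 0.107).

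Itgb4 and Lamb3 ran against the proliferation list, at -0.43 (adjusted p = 0.0205) and -0.42 (adjusted p = 0.0211), and without 2 tumors these were -0.43 and -0.49. Neither passed with rho (-0.34, adjusted p = 0.101, and -0.36, adjusted p = 0.0854). Lamb3 ran against the leukocyte list at -0.42 (adjusted p = 0.0211; -0.37 and adjusted p = 0.0658 without 2 tumors), and Itga3 against the endothelial list at -0.39 (adjusted p = 0.0369; rho -0.27, adjusted p = 0.218). Of the fibronectin-binding members, Itga5 followed the fibroblast and mesenchyme list at 0.39 (adjusted p = 0.0369; rho 0.45, adjusted p = 0.0189; 0.38 and adjusted p = 0.0562 without 2 tumors). Fn1 did not pass with that list (0.18) or with any other, and its highest value was 0.33 with leukocytes (adjusted p = 0.0946), which was 0.46 (adjusted p = 0.0134) without 2 tumors. Adipocyte and skeletal muscle lists passed with no member.

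The genes nearest to each member were those with the highest Pearson's r over the 50 tumors among the other 16732 tested genes. These values describe the ranking and carry no test. For Itgb4 they were Fam83h (0.79), Pkp3 (0.79), a plakophilin of desmosomes, and Eps8l2 (0.77), and for Lamb3 Tmem40 (0.77) and Dsp (0.77), the desmosomal plaque protein desmoplakin. For Itga3 they were Ptk7 (0.75), Gprc5a (0.72) and Itpr3 (0.69), an IP3 receptor, and without the 2 tumors farthest from the median Ptk7 fell to 0.40. Lama3 had Serpinb5 (0.89), the epithelial serpin maspin, and S100a14 (0.88). The split of the tumors enters these values. Spearman's rho was 0.62 and 0.45 over the 50 tumors, while r was 0.40 and 0.25 within the 43 tumors with little Lama3. Fn1 was nearest to Cdon (0.73), Tram2 (0.67) and Atp2b4 (0.66), and Itga5 to Bdkrb1 (0.63), a bradykinin receptor, Kdelr3 (0.63) and Fam162a (0.62).

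Itga6, Itgav and Itgb1 had neighbours of other kinds. Those of Itga6 were Tmem170 (0.64), Ubxn2a (0.62) and Sypl (0.60). Those of Itgav were Acap2 (0.91), Spred1 (0.89), an inhibitor of Ras signaling, and Xpr1 (0.87), a phosphate exporter. For Itgav the 99th percentile over all genes was already 0.74, against 0.40 to 0.63 for the other members, and its r with the length score was 0.77 (above). Those of Itgb1 were Smarca5 (0.74), a chromatin remodelling ATPase, Scoc (0.72) and Exoc8 (0.72), a subunit of the exocyst, all on chromosome 8, where Itgb1 lies (chr8:128685654-128733200, GRCm38).

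Of the 50 genes nearest to Itgb1, 43 (86.0%) were on its own chromosome, which holds 4.85% of the tested genes. Of the 50 nearest to Itga5, 20 (40.0%) were on its chromosome 15, with 3.69% of the tested genes, and of the 50 nearest to Itgav, 17 (34.0%) were on chromosome 2, with 8.4%. For the other 6 members there were 1 to 6 of 50. This was followed up with the mean z-score of all other tested protein-coding genes on the same chromosome, a measure chosen after the values of the nearest genes were seen. Nearest genes that code for protein are among those averaged, so its p-values are not independent of the counts above. Itgb1 correlated with the mean of 714 genes on chromosome 8 at an r of 0.55 (adjusted p = 0.000320 over 8 members, permutation test; rho 0.50; 0.50 without 2 tumors; 0.57 centred within treatment groups). Of the 20 chromosomes compared, its own ranked 1, ahead of chromosome 3 (0.28), and the lowest value was that of chromosome 7 (-0.43). After regression on the length score the value was 0.55. Itgav correlated with the mean of 1080 genes on chromosome 2 at 0.55 (adjusted p = 0.000320; rho 0.47; 0.45 without 2 tumors), but chromosome 18 was at 0.52 and chromosome 7 at -0.46, and after regression on the length score the value was 0.40 (adjusted p = 0.0153).

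Itga5 had an r of 0.32 with 538 genes of chromosome 15 (adjusted p = 0.0463; rho 0.31; 0.30 without 2 tumors), ahead of chromosome 16 (0.13), but chromosome 5 had a value of larger size (-0.53). Fn1 had 0.35 with 794 genes of chromosome 1 (adjusted p = 0.0346; rho 0.24; 0.16 without 2 tumors), and chromosome X was at 0.40. After regression on the length score the value for Itga5 was 0.34 (adjusted p = 0.0379), and that for Fn1 was 0.13 (adjusted p = 0.642) and no longer passed. Itga6, on chromosome 2 with Itgav, had 0.22, and Itga3, Itgb4 and Lamb3 had 0.10, 0.01 and 0.00. The value for Itgb1 was not limited to genes close by. The median r was 0.27 for 150 genes within 20 Mb, 0.37 for 32 genes 60 to 80 Mb away, 0.23 for 91 genes 100 to 120 Mb away, and -0.04 for 35 genes beyond 120 Mb, beside 0.00 for 12805 genes on other chromosomes. Chromosome copy number was not measured here, and its part in these values was not tested.

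**Figure D5:**
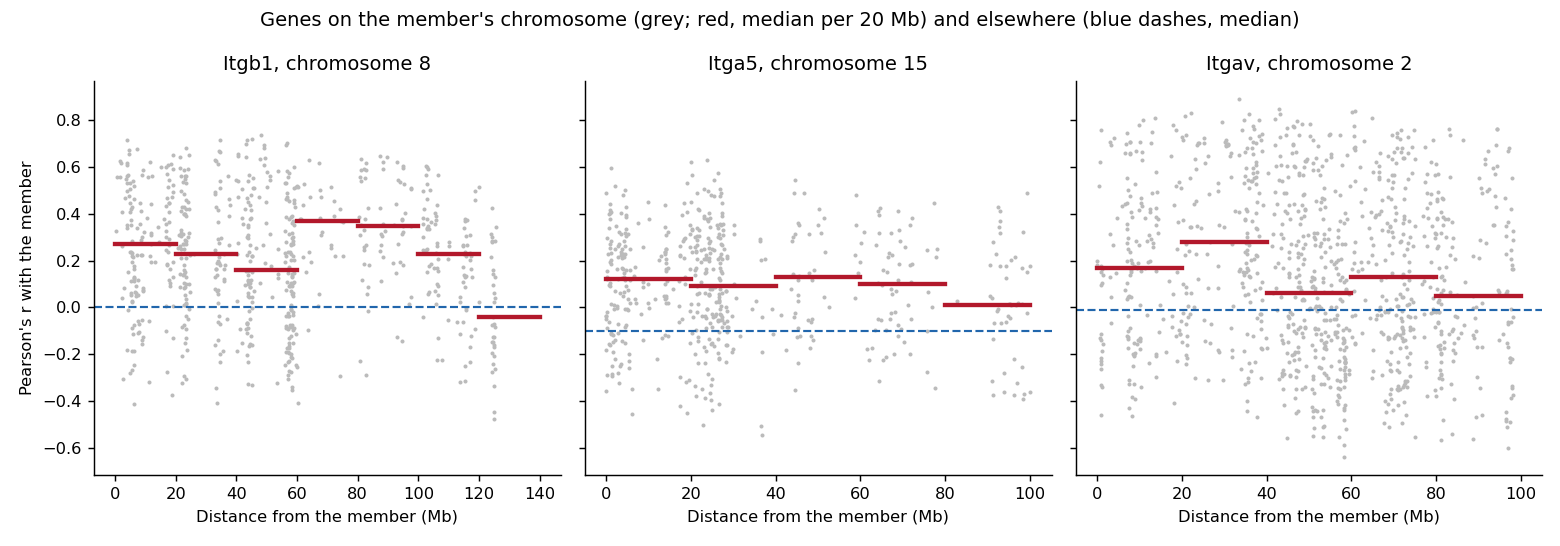
Pearson's r over 50 tumors of Itgb1, Itga5 and Itgav with each tested protein-coding gene of the same chromosome, by distance in Mb (grey points), with medians per 20 Mb (red) and the median over genes of other chromosomes (blue dashes). For Itgb1 the medians lie between 0.16 and 0.37 out to 120 Mb, above the 0.00 of other chromosomes.

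All positions are on GRCm38. Itga3 (chr11:95044474-95076801, minus strand) and Itgb4 (chr11:115974709-116008412, plus strand), the pair with the highest correlation, share chromosome 11. Itga6 (chr2:71745616-71858416) and Itgav (chr2:83724397-83806916) are both on the plus strand of chromosome 2 and had an r of 0.19 with each other. Lamb3 is at chr1:193207699-193343878, Fn1 at chr1:71585520-71653200, Itga5 at chr15:103344286-103366763 and Lama3 at chr18:12333819-12583013. The annotated span of Lamb3 takes in Hsd11b1 and G0s2 on the other strand, whose reads stay apart from those of Lamb3 only where the counting used strand.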

How the data were processed

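The authors selected Poly-A RNA and sequenced it on the Ion Proton. Reads were aligned to GRCm38 with TopHat2 2.0.10 and, for those left over, Bowtie2, and counted per gene with HTSeq 0.6.1, the versions as in the submitters' processing notes. The authors deposited RPKM values, which are reads divided by library size and gene length, in 1 table of 37701 genes and 50 tumors, and its values had not been log transformed. RPKM values are not counts. Values times length were whole numbers, within the decimals of the file, of reads scaled to 100 M per tumor. For genes up to 3000 bp with up to 1000 scaled reads, at least 97.3% of values in each tumor equalled a whole read count times 1 factor per tumor, rounded to a whole number, which gave the library sizes. Lengths were recovered for 96.9% of tested genes, Fn1 and Lama3 not among them.

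For the 16733 genes whose mean RPKM reached 0.5, log2(RPKM + 0.5) was fitted with limma 3.58.1 (R 4.3.3), using 5 groups in 1 fit, an intensity trend and Benjamini-Hochberg adjustment at 0.05. With this pseudocount, fold changes of low genes are understated. Alternatives changed the pseudocount, filter, normalization, trend, covariates and samples, or used limma voom on the recovered reads. The authors' DESeq2 analysis was not repeated. Correlations used 100000 permutations in Python 3.11.15, numpy 2.4.6 and scipy 1.17.1. Marker lists were scored as the average z-score over their genes. The fit, the recovery of reads and the chromosome means were tested on simulated data. The members, the lists and the rule for named genes (the members, the 3 nearest genes of each and the extremes of each adhesion list) were chosen with earlier results of these data known. Some genes that the rule names are not reported here. Positions are from GENCODE M21.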

Additional observations from a re-analysis of the deposited data

Results flagged for a closer look

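In 12 of the 45 combinations of member and treatment group, the highest tumor stood apart from the other 9 by more than Dixon's 95% critical value for 10 samples allows. Chance alone flags about 1 in 20 groups, and RPKM values are skewed upward. All 12 were tumors at the top of their group.

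Tumor X10_105 stood apart in Itgb4 (79.9 RPKM, the next X10 tumor 25.9), Lama3 (37.0 RPKM, next 15.1) and Lamb3 (314 RPKM, next 79.5). Untreated_174 stood apart in the same 3 genes, with 79.8 RPKM of Itgb4 (next 29.7), 31.5 of Lama3 (next 10.4) and 261 of Lamb3 (next 129). Tumor glargine_69 had 6.23 RPKM of Lama3 where the next glargine tumor had 0.608.

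For Itga3, X10_111 had 269 RPKM (next 138). For Itga6, insulin_37 had 85.4 RPKM (next 56.3), and for Itgb4 IGF1_124 had 19.6 RPKM (next 10.1). Fn1 reached 1616 RPKM in X10_100 (next 752) and 1192 RPKM in IFG1_132 (an IGF1 tumor, spelled so in its label) (next 705).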

How the results depend on the processing

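No member was called in any comparison under any alternative. Over these, 473 log2 fold changes of members did not turn sign at 2 decimals, those that rounded to 0 included. The other 8 turned, all to values close to 0. With pseudocount 1, Itgb4 with glargine was -0.04. With X10, Itgb4 was 0.03 with pseudocount 0.1, 0.08 with quantile normalization, 0.01 with a library size covariate and 0.07 using limma voom. Itga6 with insulin was 0.01 with quantile normalization, Itga5 with glargine 0.06 with muscle and adipocyte scores as covariates, and Fn1 with X10 0.02 with a library size covariate.

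Counts over all genes moved more. For insulin they were 2 (mean RPKM of at least 5), 2 (quantile normalization) and 3 (library size covariate) in place of 0. For X10 they were 24 (all genes with a nonzero value), 1 (library size) and 4 (only the groups compared) in place of 11, and for IGF1 0 (mean RPKM of at least 5, and only the groups compared) in place of 1. For X10 and IGF1 against the others, 26 became 11 (all nonzero genes), 17 (at least 5), 10 (library size), 16 (voom) and 54 without insulin_13. In the F test, 17 became 0 (all nonzero genes, and library size), 6 (quantile), 3 (voom) and 29 without that tumor. The cause was not tested.

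Of the member pairs, 4 passed with Spearman's rho and 3 without the 2 tumors farthest from the median, against 7. Itga3 with Itga6, which is not among the 7, is counted in both settings. Of the own-chromosome means, 2 passed with rho and 2 without 2 tumors, against 4, those of Itgb1 and Itgav. The chromosome means, the length score and leaving out the insulin tumor were chosen after seeing the data. Lama3 was not tested at a mean RPKM of at least 5. No paired analysis was possible because no mouse number occurs in more than 1 group.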
